A study of Mus musculus with 7 samples.

Results

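The cells described here were astrocytes of the mouse posterolateral cortical amygdala that carried RNA of Gfap, the intermediate filament of the astrocyte cytoskeleton, or of Myoc, a secreted glycoprotein called myocilin. Single-nucleus RNA-seq captures each nucleus in a droplet with a barcode and counts its RNA molecules as unique molecular identifiers (UMIs). Barcodes with at least 1000 detected genes and at most 30000 UMIs were taken as nuclei, which gave 51115 nuclei over 7 libraries. Of these, 7425 were astrocytes by their UMIs. They held at least 4 UMIs over Aqp4, Slc1a3 and Gja1 with at least 2 of the 3 genes detected, at most 1 UMI over the neuronal genes Slc17a7, Slc17a6, Gad1 and Gad2, and at most 1 over Pdgfra, Mog and Csf1r, which mark other glia. The Gfap or Myoc astrocytes were the 1014 of these 7425 with at least 2 UMIs over Gfap and Myoc together. They were set beside the 5626 astrocytes with no Gfap or Myoc UMI, called zero-UMI astrocytes below, and 785 astrocytes had exactly 1 such UMI. Because the members were chosen by their measured Gfap and Myoc UMIs, the levels of these genes and of the 3 astrocyte genes are given as a description without a test.

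The tissue came from male C57BL6J mice, 8 weeks old and wild type. The study compared the anterior (aplCoA) and the posterior (pplCoA) part of this olfactory cortical area, with 3 replicates each, and aplCoA replicate 1 was the sum of 2 libraries. All mice were single-housed in sensory deprivation before they were killed, a step taken in both groups to lower immediate-early gene expression, and were anaesthetised with ketamine and xylazine and perfused with artificial cerebrospinal fluid. Each replicate pooled tissue dissected from several mice, so a p-value measures the spread between pools, and individual mice cannot be told apart. The Gfap or Myoc astrocytes numbered 249, 116 and 313 in aplCoA replicates 1 to 3, and 196, 84 and 56 in pplCoA replicates 1 to 3.

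Astrocytes of the cortical grey matter usually hold little Gfap RNA, while astrocytes under the pia, around large vessels and in white matter hold more. The layer of astrocyte endfeet at the brain surface, the glia limitans, is rich in the water channel aquaporin-4 (Aqp4) and is known for superficial astrocytes that express Myoc. Gfap also rises in reactive astrocytes, and it responds to signalling by STAT3 and by bone morphogenetic proteins (BMPs), whose immediate targets are the Id genes. Position in the tissue was not measured in these libraries.

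Gfap lies on chromosome 11 (GENCODE on GRCm38, 102887336 to 102900912, minus strand) and Myoc on chromosome 1 (162639155 to 162649693, plus strand). The genes that define the class do not share a chromosome, and their promoters are shown because the sum of both RNAs chose its nuclei. The sequences are the 250 bases before each gene's start in RefSeq (GRCm38.p6), at chr11:102897201-102897450 on the minus strand for Gfap and chr1:162638900-162639149 on the plus strand for Myoc. They were searched on both strands for TATAAA, for TGANTCA (AP-1), for TTCNNNGAA (STAT) and for TTGGC (the core of an NFI site). The letters occur in 12.4%, 6.75%, 7.01% and 41.5% of 32817 mouse promoter windows, respectively. RefSeq and the GENCODE interval given above place the start of Gfap differently, so its window lies inside the GENCODE gene. The single match was TATAAA in Myoc, shown in capitals, which starts at base -26 from the gene's start.
Gfap: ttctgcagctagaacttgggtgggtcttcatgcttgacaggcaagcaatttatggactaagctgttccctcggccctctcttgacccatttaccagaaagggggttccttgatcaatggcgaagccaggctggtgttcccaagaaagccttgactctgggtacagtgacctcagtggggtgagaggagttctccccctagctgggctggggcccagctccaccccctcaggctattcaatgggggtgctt
Myoc: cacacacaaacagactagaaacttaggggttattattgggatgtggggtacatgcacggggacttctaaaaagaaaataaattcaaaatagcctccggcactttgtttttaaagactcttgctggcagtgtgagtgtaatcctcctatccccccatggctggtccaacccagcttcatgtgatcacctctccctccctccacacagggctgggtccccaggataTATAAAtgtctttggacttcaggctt

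The class was not uniform. Both genes were detected in 586 of its nuclei (57.8%), Gfap without Myoc in 309 (30.5%) and Myoc without Gfap in 119 (11.7%). The median nucleus held 4 Gfap and Myoc UMIs together and the highest 38, with 247 nuclei (24.4%) at exactly 2 and 186 (18.3%) at 10 or more. Summed over the nuclei of a replicate and scaled to counts per 1000000 UMIs (CPM), Gfap was at 756, 1261 and 963 CPM in aplCoA and at 842, 808 and 607 CPM in pplCoA. Myoc was at 946, 875 and 943 CPM in aplCoA and at 586, 489 and 263 CPM in pplCoA. Gfap overlapped between the domains, whereas every aplCoA replicate had more Myoc than every pplCoA replicate.

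Aqp4, which the gate used, was detected in 94.0% of the Gfap or Myoc astrocytes and in 60.1% of zero-UMI astrocytes, and its summed level was 925 ± 223 CPM (SD, n = 6) against 254 ± 26.5 CPM. Slc1a3, a glutamate transporter, was at 1662 ± 341 CPM against 2522 ± 189 CPM, and Gja1, the gap junction protein connexin 43, at 279 ± 70.7 CPM against 317 ± 32.0 CPM. Their presence was set by the gate, and between the classes the Gfap or Myoc nuclei held more Aqp4 and less Slc1a3. On either side of the threshold, nuclei with 1 UMI held 377 CPM of Aqp4 and 2502 CPM of Slc1a3, and nuclei with exactly 2 held 546 CPM and 2213 CPM.

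Other cell types held Gfap and Myoc UMIs less often than astrocytes, and the part of free RNA in the droplets in these shares was not tested. At least 2 Gfap and Myoc UMIs were found in 13.7% of astrocytes, and in 0.204% of arachnoid barrier cell nuclei, 0.458% of glutamatergic, 0.668% of GABAergic and 0.516% of microglial nuclei. The highest of the other classes was the oligodendrocytes at 0.974% (exact binomial 95% interval 0.558 to 1.58%, which covers counting error only). Median depth was 3653 UMIs in astrocytes, 13635 in glutamatergic, 8521 in GABAergic, 3659.5 in microglial and 3131 in oligodendrocyte nuclei. With every nucleus thinned to 2000 UMIs and shallower nuclei left out, the share was 9.60% in astrocytes and 0.05005 to 0.594% in the others.

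Of the astrocytes, the Gfap or Myoc class made up 11.6, 15.2 and 18.4% in aplCoA and 13.4, 11.9 and 8.54% in pplCoA. The groups overlapped, and the means of 15.1 ± 3.38% and 11.3 ± 2.50% (SD, n = 3) gave p = 0.3 by a two-sided exact permutation test, whose smallest possible p with 3 against 3 is 0.1. As a share of all nuclei the class was at 2.47% in aplCoA and 1.503% in pplCoA, a difference of 0.504 in the natural log of the odds that did not pass in limma over all cell classes (adjusted p = 0.179). Without aplCoA replicate 1 that difference was 0.716 (adjusted p = 0.0456 in limma). Without any other single replicate it was 0.324 to 0.673 and did not pass (adjusted p = 0.0774 to 0.367 in limma).

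The makeup of the class is given as a description, because Gfap and Myoc chose its members. Myoc was detected in 72.7, 76.7 and 78.3% of the class in aplCoA and in 63.3, 52.4 and 39.3% in pplCoA. The means were 75.9 ± 2.88% and 51.6 ± 12.0% (SD, n = 3) without overlap, and 79.6 and 61.7% after thinning to 2000 UMIs, again without overlap. Nuclei with Gfap and no Myoc UMI were 3.18, 3.55 and 3.995% of astrocytes in aplCoA and 4.93, 5.67 and 5.18% in pplCoA, also without overlap. Nuclei with any Myoc UMI and a sum of at least 2 were 8.46, 11.7 and 14.4% of astrocytes in aplCoA and 8.49, 6.23 and 3.35% in pplCoA, where the lowest aplCoA replicate lay beside the highest pplCoA replicate. The means of the domains thus differed in opposite directions, without overlap for the nuclei with Gfap alone and with overlap for those with Myoc. That overlap depended on nuclei with at least 2 UMIs of meningeal markers, which are described below. With them left out, the nuclei with Myoc were 9.12, 13.6 and 15.6% of astrocytes in aplCoA and 8.95, 6.62 and 3.56% in pplCoA, without overlap. Those with Gfap alone again did not overlap.

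**Figure D1:**
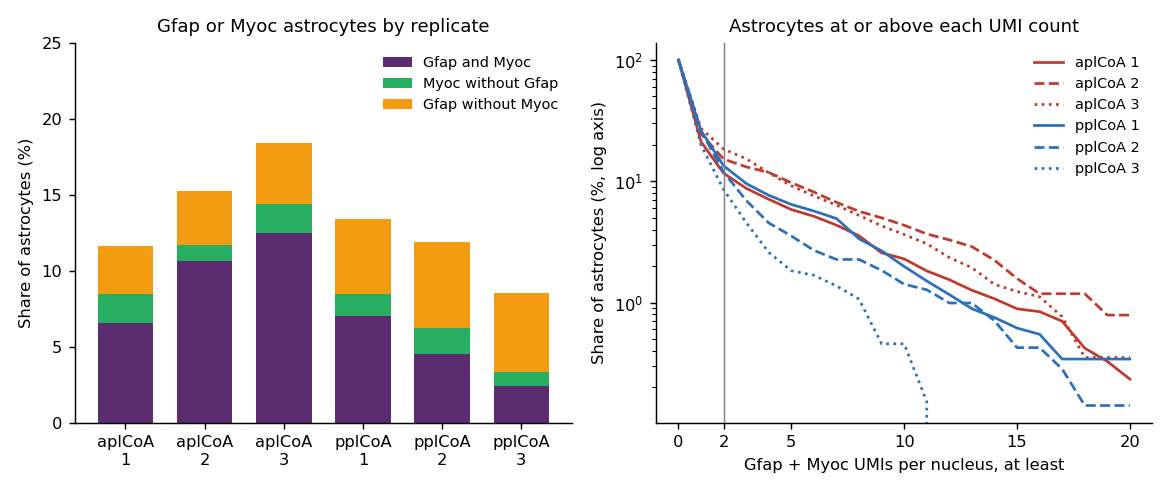
The left panel stacks, for each replicate, the share of astrocytes (%) with Gfap and Myoc, with Myoc but no Gfap, and with Gfap but no Myoc, which together are the Gfap or Myoc astrocytes. The right panel plots the share of astrocytes (%, log axis) at or above each number of Gfap and Myoc UMIs, 1 line per replicate, with a grey line at the threshold of 2; the pplCoA replicate 3 line falls away fastest, and the domains come close to each other at 1 UMI (24.3% in aplCoA and 24.01% in pplCoA on average).

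The separation in the right panel grew with the threshold. With at least 4 UMIs the share of astrocytes was 10.2% in aplCoA and 4.93% in pplCoA (exact permutation p = 0.2). With at least 2 UMIs of Myoc alone it was 9.48 ± 2.30% against 4.70 ± 2.29%, without overlap, and with at least 2 UMIs of Gfap alone 11.1% against 8.83%, with overlap. Over all 7425 astrocytes, Myoc was at 126 ± 28.7 CPM in aplCoA and 55.7 ± 27.7 CPM in pplCoA (SD, n = 3), a log2 difference of 1.09. Gfap was at 151 ± 48.4 and 118 ± 24.3 CPM, a log2 difference of 0.31. In such sums, fewer cells of a type and less RNA per cell cannot be told apart.

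The comparison class was less pure than the Gfap or Myoc class, which bears on every gene that was lower in the latter. At least 2 UMIs over 14 markers of the meninges (vascular leptomeningeal cells and arachnoid barrier cells) were found in 627 zero-UMI astrocytes (11.1%) and in 21 Gfap or Myoc astrocytes (2.07%), of which 14 were in aplCoA replicate 3. These 627 nuclei held a median of 2 UMIs over the astrocyte genes Slc1a2, Gpc5 and Slc4a4 and no Aqp4 UMI in 90.7%, against 72 UMIs and 33.5% in the rest of that class. The summed leptomeningeal markers ranged over 143 to 1033 CPM in the Gfap or Myoc class, over 2294 to 7044 CPM in zero-UMI astrocytes, and over 206 to 455 CPM once nuclei with at least 2 meningeal UMIs were left out. The arachnoid markers ranged over 0 to 38.2 CPM in the Gfap or Myoc class, with Dapl1 and Krt18 at 0. Each comparison was therefore also made with nuclei of at least 2 meningeal UMIs left out of both classes, an alternative chosen after seeing the data and called the comparison without meningeal-marker nuclei.

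Summed markers of other cell types were compared within the 6 replicates and by their ranges. In the Gfap or Myoc class the summed markers of glutamatergic neurons ranged over 68.4 to 127 CPM, against 57.8 to 130 CPM in zero-UMI astrocytes, and were higher in 5 of 6 replicates. Those of GABAergic neurons were lower in 6 of 6, at 250 to 433 CPM against 395 to 504 CPM, and did not overlap without meningeal-marker nuclei (256 to 438 against 453 to 566 CPM). Of these, Erbb4, a neuregulin receptor, was tested and was lower (log2 -0.78, and -0.95 without meningeal-marker nuclei). Markers of oligodendrocyte precursors ranged over 95.9 to 202 CPM against 114 to 185 CPM, and those of oligodendrocytes over 25.5 to 121 CPM against 33.0 to 119 CPM. Ependymal markers ranged over 16.3 to 41.3 CPM against 17.8 to 39.5 CPM, higher in 4 of 6 replicates and in 6 of 6 without meningeal-marker nuclei, with Tmem212 and Ttr at 0. Endothelial and mural markers were at 3.26 to 15.2 CPM against 50.4 to 152 CPM, with Cldn5 and Kcnj8 at 0, and without meningeal-marker nuclei they overlapped, at 3.32 to 15.2 CPM against 9.77 to 25.7 CPM. Microglial markers were higher in 6 of 6 replicates, at 126 to 195 CPM against 74.7 to 130 CPM, and P2ry12, the receptor that stands among them, was itself higher in the class (log2 0.87), whose part in the microglial sum was not tested. The part of RNA of other cell types in the differences between the classes was not tested.

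The nuclei of the class were slightly shallower. The median nucleus of the Gfap or Myoc class held 3314 ± 268 UMIs (SD over 6 replicates) against 3660 ± 335 in zero-UMI astrocytes and was shallower in 5 of 6 replicates (exact sign-flip permutation p = 0.0938). Scrublet, which scores likely doublets, marked 4.64% of the class and 3.22% of zero-UMI astrocytes, and 34 of its 47 marked nuclei were in aplCoA replicate 3.

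Gfap or Myoc astrocytes differed from zero-UMI astrocytes in 833 of 5618 genes tested (14.8%), of which 484 were higher (8.62%) and 349 lower (6.21%). These were genes detected in at least 10% of nuclei in either class, compared over the 6 replicates with edgeR's quasi-likelihood test with the replicate as a block, and called at an adjusted p below 0.01 with a fold of more than 1.5. A gene that passed the filter in 1 class alone had to be detected in a larger share of nuclei there. Later sentences mean this where a gene had to differ or to be the higher or lower. This held for 208 of the higher genes, through the Gfap or Myoc class, and for 130 of the lower genes, through zero-UMI astrocytes. It did not force a call, as 333 of the genes tested passed only through the Gfap or Myoc class. The median log2 difference over all tested genes was -0.03. DESeq2 called 820 genes. Without meningeal-marker nuclei 835 of 5485 genes were called (15.2%), 494 higher (9.01%) and 341 lower (6.22%). Of the higher genes, 429 were called in both (88.6% of the first list and 86.8% of the second), and of the lower genes 234 (67.0% and 68.6%).

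The genes with the largest differences upward included a transporter, receptors and an immediate-early gene. Slc38a1, a transporter of glutamine and other neutral amino acids, was at 581, 758 and 917 CPM in aplCoA and at 565, 316 and 166 CPM in pplCoA, against 8.11 to 16.4 CPM in the zero-UMI astrocytes of the same replicates. It was detected in 57.8% of Gfap or Myoc nuclei and in 3.91% of zero-UMI nuclei, and the classes did not overlap (log2 difference 5.44, SE 0.18, edgeR adjusted p = 7.82e-10). Slc38a1 thus passed the detection filter only through the Gfap or Myoc class and had to be the higher there. Slc38a1 had its lowest value in pplCoA replicate 3, the replicate with the fewest nuclei of the class.

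Fos, an immediate-early transcription factor, was at 207, 388 and 291 CPM in aplCoA and 221, 238 and 110 CPM in pplCoA, against 4.87 to 14.2 CPM (log2 4.81, SE 0.12, edgeR adjusted p = 2.62e-16). It was higher in 6 of 6 replicates, which was required of a gene named by size, in mice that had been kept in sensory deprivation. Fos, like Tshr and A2m below, passed the detection filter only through the Gfap or Myoc class and had to be the higher there. Tshr, the thyrotropin receptor, was at 100, 65.5 and 91.6 CPM in aplCoA and 82.2, 71.7 and 59.4 CPM in pplCoA against 1.35 to 2.66 CPM (log2 5.43, SE 0.19). A2m, a secreted protease inhibitor, ranged more widely, from 25.5 CPM in pplCoA replicate 3 to 451 CPM in aplCoA replicate 3, against 2.70 to 9.88 CPM (log2 4.89, SE 0.19).

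Other genes with large differences were expressed at lower levels. Cidea, a lipid droplet protein, was at 6.52 to 58.1 CPM against 0 to 1.08 CPM (log2 5.81, SE 0.39), from 148 UMIs in the Gfap or Myoc class and 14 in the other. Pparg, a nuclear receptor of lipid metabolism, was at 12.7 to 60.8 CPM against 1.35 to 3.52 CPM (log2 4.18, SE 0.27). Ano1, a calcium-activated chloride channel, was at 4.25 to 107 CPM against 0.643 to 3.02 CPM (log2 5.23, SE 0.33). Also among the 14 with the largest differences were Siah3 (log2 4.70), the Rap1 adaptor Apbb1ip (4.39), the Cdc42 exchange factor Fgd2 (4.38), the syntrophin Sntg2 (4.31), Gfra2, a co-receptor of neurturin (4.10), and Myocos (7.92). Myocos is transcribed from the strand opposite Myoc and overlaps it by 2501 bases, so its 233 UMIs in the class, against 4 in zero-UMI astrocytes, are uncertain. All 14 passed the detection filter only through the Gfap or Myoc class, were higher in 6 of 6 replicates, and were also called without meningeal-marker nuclei.

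**Figure D2:**
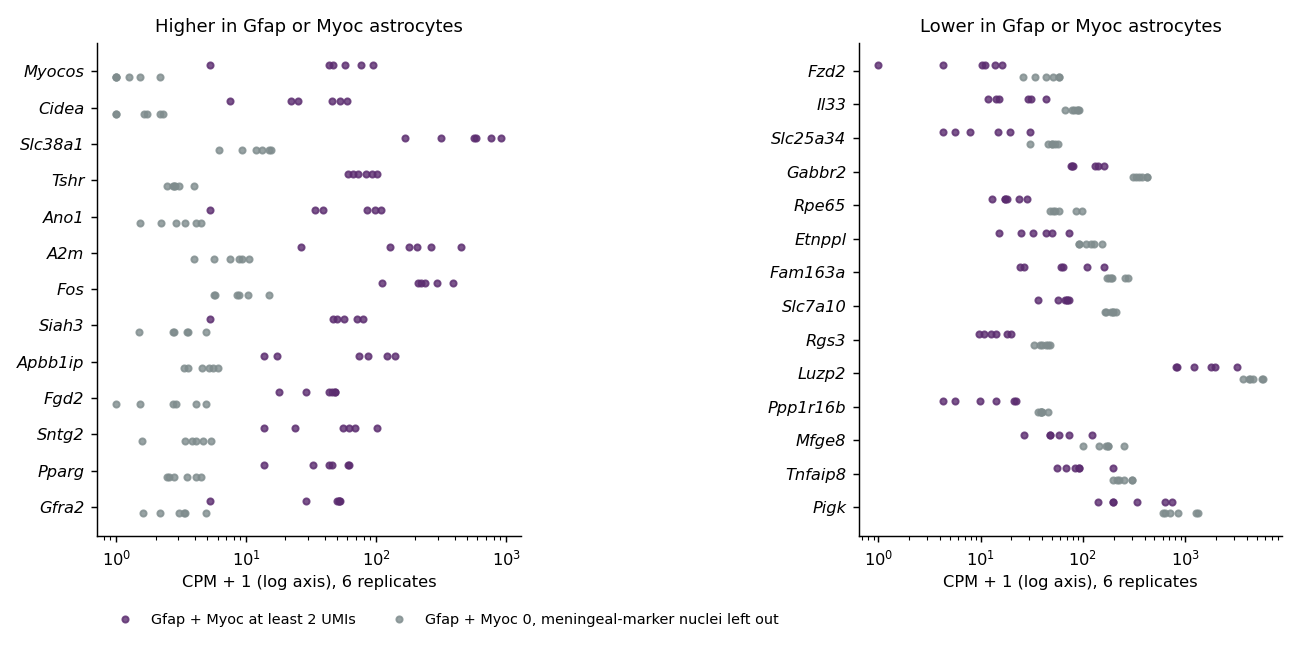
Summed level (CPM + 1, log axis) of 13 genes higher (left) and 14 genes lower (right) in Gfap or Myoc astrocytes (purple, at least 2 Gfap and Myoc UMIs) than in astrocytes with none and without meningeal-marker nuclei (grey), each point 1 of 6 replicates. The higher genes lie apart from the grey points in nearly every replicate, from 166 to 917 CPM for Slc38a1 against 5.18 to 14.4 CPM, and most of the lower genes keep a measurable level in the class.

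Of the 8 genes of the activity and stress list that were tested, 5 were higher and none lower, beside 8.62% and 6.21% of all genes tested, but 4 of those 5 (Fos, Egr1, Nr4a1 and Junb) passed the detection filter only through the Gfap or Myoc class, where they had to be the higher. Egr1 was at 89.5, 189 and 166 CPM in aplCoA and 133, 199 and 59.4 CPM in pplCoA against 4.87 to 26.1 CPM (log2 3.05), and Nr4a1 at 16.98 to 215 CPM against 2.16 to 5.93 CPM (log2 3.77). Junb (2.74) and Jun (1.21), partners of Fos in AP-1, were also higher, while Jund had a log2 difference of 0.45 (edgeR adjusted p = 0.0225) that did not pass. Without meningeal-marker nuclei Jund passed (0.95), but there it reached the detection filter only through the Gfap or Myoc class and had to be the higher.

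The Id genes and other genes of BMP signalling were higher in 9 of 14 tested and lower in 2, beside 8.62% and 6.21% of all genes tested. Of the 9, 4 passed the detection filter only through the Gfap or Myoc class, among them Id1, Smad6 and Smad7. Id1, an inhibitor of basic helix-loop-helix factors, was at 135, 180 and 222 CPM in aplCoA and 97.4, 94.5 and 72.2 CPM in pplCoA against 8.55 to 19.3 CPM (log2 3.07, SE 0.14, edgeR adjusted p = 5.40e-13). Id3 was at 287, 311 and 384 CPM and at 210, 189 and 149 CPM against 50.3 to 99.0 CPM (log2 1.84), and Id2 (0.78) and Id4 (0.65) differed less. The inhibitory Smads, which dampen the pathway, were Smad6 at 2.56 and Smad7 at 1.90, and the receptors Bmpr1a and Bmpr1b were at 0.70 and 0.80. The ligands Bmp6 (-2.55) and Bmp7 (-2.22) were the lower members, and without meningeal-marker nuclei no member was called lower (8 higher of 12 tested). Of these ligands, 1 passed the detection filter only through zero-UMI astrocytes and had to be the lower in the class.

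Genes known from astrocytes at the brain surface were divided. Of the 13 tested, 6 were higher, 4 of them detected in 10% of nuclei only in the Gfap or Myoc class, and 4 lower, 3 of them only in zero-UMI astrocytes, beside 8.62% and 6.21% of all genes tested. Agt, the precursor of angiotensin, was at 97.1, 67.8 and 76.8 CPM in aplCoA and 41.7, 16.3 and 25.5 CPM in pplCoA (log2 0.95). In zero-UMI astrocytes Agt was at 47.8, 37.1 and 39.4 CPM in aplCoA and 15.3, 16.1 and 17.3 CPM in pplCoA. The pplCoA values of the class lay inside that range over both domains. Within every replicate Agt was higher in the class, though hardly so in pplCoA replicate 2. This list was set with earlier results of these data known and is no independent evidence of a position at the surface. The endfoot list, which holds the dystrophin complex and its partners, had 1 of 12 genes higher, Sntb1 (1.21), near the 8.62% of all genes tested, none lower and a median of 0.10 (1 higher, 1 lower and a median of -0.02 without meningeal-marker nuclei). Kcnj10, the potassium channel Kir4.1, had a log2 difference of -0.12, Dmd 0.17 and Dtna 0.22, and none of the 3 passed.

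Few genes of the published reactive-astrocyte lists could be tested. Cd44, a hyaluronan receptor of the pan-reactive list, was at 78.6, 110 and 113 CPM in aplCoA and 62.0, 114 and 34.0 CPM in pplCoA against 5.53 to 10.8 CPM (log2 3.53), and the other gene tested of that list, the ferroxidase Cp, was lower (-2.86) and could not be tested without meningeal-marker nuclei. Cp passed the detection filter only through zero-UMI astrocytes and had to be the lower in the class. Of the list called A1, 2 genes were tested, and both passed the detection filter only through the Gfap or Myoc class, as did Cd44. Ggta1, a galactosyltransferase, was at 59.4 to 110 CPM against 3.00 to 10.6 CPM (log2 3.75), and the complement gene C4b at 32.6 to 89.6 CPM against 5.63 to 10.7 CPM (log2 3.00). Of the list called A2 only the transcription factor Stat3 was tested, at 76.4 to 225 CPM against 61.7 to 96.2 CPM (log2 1.05). In pplCoA replicate 3, Stat3 was inside the range of zero-UMI astrocytes.

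Matrix genes went both ways, with 6 of 21 higher and 3 lower, beside 8.62% and 6.21% of all genes tested, and a median of 0.04. Cd44, 1 of the 6, passed the detection filter only through the Gfap or Myoc class, and 1 of the 3 lower genes only through zero-UMI astrocytes. Tnc, the matrix glycoprotein tenascin-C, was at 352 to 575 CPM against 133 to 186 CPM (log2 1.60), and Tnr, tenascin-R, was at log2 1.89. Adamts9, a secreted metalloprotease, was among the most abundant of the higher genes, at 954, 1247 and 1258 CPM in aplCoA and 885, 831 and 531 CPM in pplCoA against 94.3 to 146 CPM (log2 2.97). Sulf2, a sulfatase of heparan sulfate outside that list that also passed only through the class, was at 110 to 217 CPM against 4.87 to 12.1 CPM (log2 4.09).

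Lipid and sterol genes were higher in 5 of 17 and lower in none, beside 8.62% and 6.21% of all genes tested, with a median of 0.54. Hmgcs1, an early enzyme of cholesterol synthesis, was at 72.2 to 151 CPM against 45.0 to 58.9 CPM (log2 1.17), and Insig1 (1.13) and Sqle (0.79), which passed the detection filter only through the Gfap or Myoc class, were among the others. Without meningeal-marker nuclei the list had 3 higher and 1 lower and a median of 0.34. Of the 21 tested transcription factors of the astrocyte lineage, 3 were higher (Stat3, Id4 and Nfix) and 5 lower, among them Etv4 (-1.08), Emx2 (-0.92), Etv5 (-0.75) and Rora (-0.69), and without meningeal-marker nuclei 1 was higher (Stat3) and 6 lower, with a median of -0.13. Of the 5 lower factors, and again of the 6, 1 passed the detection filter only through zero-UMI astrocytes and had to be the lower in the class. No mitochondrial gene of 5 passed, and 2 of 9 glycogen genes were higher, Ppp1r3c (0.83) and Pfkfb3 (1.01), of which Pfkfb3 passed the detection filter only through the Gfap or Myoc class.

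The genes with the largest differences downward could mostly not be tested once meningeal-marker nuclei were left out. The 14 named by size were led by Slc6a20a (-4.13), Ptgds (-3.97) and Slc6a13 (-3.57), and without meningeal-marker nuclei 12 of them were detected in fewer than 10% of nuclei in both classes and were not tested. Ptgds, prostaglandin D synthase, was at 290 ± 295 CPM in the Gfap or Myoc class and 4109 ± 1637 CPM in zero-UMI astrocytes, which became 224 ± 88.2 CPM (log2 -0.17, edgeR adjusted p = 0.177). Ranbp3l was the single gene of the 14 that was still called (-0.96, from -2.51). The log2 differences and calls of the lower genes below are therefore those without meningeal-marker nuclei. The levels beside them are those of all nuclei of the Gfap or Myoc class and those of zero-UMI astrocytes without meningeal-marker nuclei.

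Parenchymal astrocyte genes were in part lower. Without meningeal-marker nuclei 10 of 18 were lower, 8 did not pass and none was higher, where 6.22% of all genes tested were lower, with a median log2 difference of -0.67 beside -0.01 over all genes (6 lower and a median of -0.49 with all nuclei). Of the 10, 1 passed the detection filter only through zero-UMI astrocytes. Slc7a10, a transporter of serine and glycine, was at 68.8, 56.1 and 35.4 CPM in aplCoA and 65.8, 68.4 and 72.2 CPM in pplCoA against 162 to 209 CPM (log2 -1.72, SE 0.13, edgeR adjusted p = 1.42e-08). Mfge8, a bridging protein of phagocytosis, was at 25.7 to 123.1 CPM against 99.7 to 250 CPM (-1.57). Trpm3, a cation channel, and Kcnd2, a potassium channel subunit, were lower with all nuclei as well (-2.10 and -0.996).

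Luzp2, a leucine zipper protein, was at 1210, 837 and 804 CPM in aplCoA and 1933, 1793 and 3192 CPM in pplCoA against 3660 to 5776 CPM (log2 -1.71, SE 0.26, adjusted p = 0.00422 in edgeR). Gabbr2, a subunit of the GABA-B receptor, was at 74.97 to 158 CPM against 304 to 421 CPM (-1.78, SE 0.19, adjusted p = 0.000109), and Il33, a nuclear cytokine released from damaged cells, at 10.8 to 42.5 CPM against 65.4 to 91.0 CPM (-1.98, SE 0.22). For these 3 genes the classes did not overlap, as for 12.0% of all genes tested with all nuclei. Without meningeal-marker nuclei, Il33 was detected in 15.5% of Gfap-only nuclei of the class, 2.46% of its Myoc nuclei and 25.1% of zero-UMI astrocytes. It thus passed the detection filter only through zero-UMI astrocytes and had to be the lower in the class. Of the genes for handling glutamate and GABA, 3 of 15 were lower and 1 higher, beside 6.22% and 9.01% of all genes tested, with a median of -0.35. Gria2, the AMPA receptor subunit that limits calcium entry, was at 631, 484 and 451 CPM in aplCoA and 830, 831 and 1197 CPM in pplCoA against 1580 to 1947 CPM. The abundant transporter Slc1a2, at 5777 ± 1241 against 8024 ± 689 CPM, did not pass (log2 -0.53), nor did the glypican Gpc5 (-0.89, edgeR adjusted p = 0.0158).

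The nuclei with Myoc and those with Gfap alone were not alike. The 705 nuclei with a Myoc UMI were compared with the 309 that had Gfap and no Myoc UMI, and 611 of 5851 genes were called (10.4%), with 299 higher (5.11%) and 312 lower (5.33%), around a median of -0.01. Of these, 86 of the higher genes passed the detection filter only through Myoc nuclei and 90 of the lower only through Gfap-only nuclei, among them all 8 higher and 6 of the 8 lower genes named by size, and had to differ. Aqp4 was at 1200 ± 91.3 CPM in Myoc nuclei and 581 ± 176 CPM in Gfap-only nuclei (SD, n = 6), and Slc1a3 at 1111 ± 154 CPM and 2375 ± 255 CPM. The median Myoc nucleus held 2733 to 3230 UMIs and the median Gfap-only nucleus 3561 to 4507 over the 6 replicates, and the part of depth in these differences was not tested.

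Slc6a6, a taurine transporter, was at 193, 184 and 263 CPM in aplCoA and 281, 220 and 103 CPM in pplCoA among Myoc nuclei, and at 6.03 to 64.5 CPM among Gfap-only nuclei (log2 2.83, SE 0.23, edgeR adjusted p = 1.73e-12). Siah3, a relative of ubiquitin ligases, was at 76.8 ± 36.6 CPM against 10.5 ± 14.1 CPM (log2 2.87, SE 0.41). Chdh, choline dehydrogenase (2.84), Fam129a (2.80), Fxyd6, a regulator of the sodium pump (2.68), Prr5l (2.68) and Retreg1 (2.52) followed. Slc38a1 (2.44), Egr1 (2.17) and Id1 (1.58) were also higher in Myoc nuclei, while Fos (2.17) missed the threshold at an edgeR adjusted p of 0.016.

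Downward, Luzp2 was at 192, 155 and 251 CPM in aplCoA and 306, 213 and 709 CPM in pplCoA among Myoc nuclei, and at 2383 to 4194 CPM among Gfap-only nuclei (log2 -3.68, SE 0.17, edgeR adjusted p = 6.27e-08). Fam163a was at 0 to 14.8 CPM against 71.7 to 220 CPM (log2 -4.69, SE 0.33), and St6galnac5, a sialyltransferase, at 7.09 to 73.8 CPM against 197 to 780 CPM (-3.66). Slc7a10 was at 0 to 15.8 CPM against 98.7 to 170 CPM (-3.38), Gria2 at 170 to 428 CPM against 1081 to 1554 CPM (-2.49) and Gpc5 at 2478 to 5966 CPM against 7649 to 11047 CPM (-1.44). None of these 6 overlapped, as for 6.22% of all genes tested here. Fam163a, St6galnac5 and Slc7a10 passed the detection filter only through Gfap-only nuclei and had to be the lower in Myoc nuclei. Of the 18 parenchymal genes, 8 were lower and none higher (median -0.76), where 5.33% of all genes tested were lower, and 2 of the 8, Slc7a10 and Mfge8, passed the detection filter only through Gfap-only nuclei. Of the 13 BMP and Id genes 5 were higher, where 5.11% of all genes tested were, with Smad7 passing only through Myoc nuclei, and no endfoot gene of 12 passed in either direction.

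Each subset was also set beside zero-UMI astrocytes, without meningeal-marker nuclei. The subsets share that comparison class, so their values are given side by side and not compared. Gfap-only nuclei differed in 116 of 5681 genes (2.04%), 104 higher (1.83%) and 12 lower (0.211%). Myoc nuclei differed in 1321 of 5507 (24.0% of those tested), 708 higher (12.9%) and 613 lower (11.1%). The first subset had 309 nuclei and the second 705, so the counts also rest on unequal numbers of nuclei. Of the higher genes, 29 of the 104 and 303 of the 708 passed the detection filter only through the subset, and of the lower genes 1 of the 12 and 223 of the 613 only through zero-UMI astrocytes, and these had to differ.

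The genes higher in the whole class are given for each subset. Slc38a1, Fos, Id1, A2m, Sulf2 and Egr1 were below 10% of nuclei in zero-UMI astrocytes, so they were tested only through the subset and had to be the higher there, while Adamts9, Id3 and Tnc were not. The log2 difference of Slc38a1 was 3.69 in Gfap-only nuclei and 6.13 in Myoc nuclei, that of Fos 3.38 and 5.42, and that of Id1 1.91 and 3.47. Gfap-only nuclei were also higher in A2m (2.98), Sulf2 (2.71), Egr1 (2.60), Adamts9 (1.80), Id3 (1.33) and Tnc (1.13), and lower in Etnppl (-0.88), Il33 (-0.87) and Gabbr2 (-0.77). Parenchymal genes were called in 0 of 18 in Gfap-only nuclei (median -0.20), where 0.211% of all genes were lower, and lower in 14 of 18 in Myoc nuclei (median -0.9999), where 11.1% were. Of these 14, 4 (Slc7a10, Mfge8, Wnt7b and Lhx2) passed the detection filter only through zero-UMI astrocytes and had to be the lower in Myoc nuclei. Slc7a10 had a difference of -0.48 in Gfap-only nuclei, which did not pass, and of -3.89 in Myoc nuclei. For Luzp2 these were -0.51, which did not pass, and -4.17, and for Gpc5 -0.17, which did not pass, and -1.59.

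**Figure D3:**
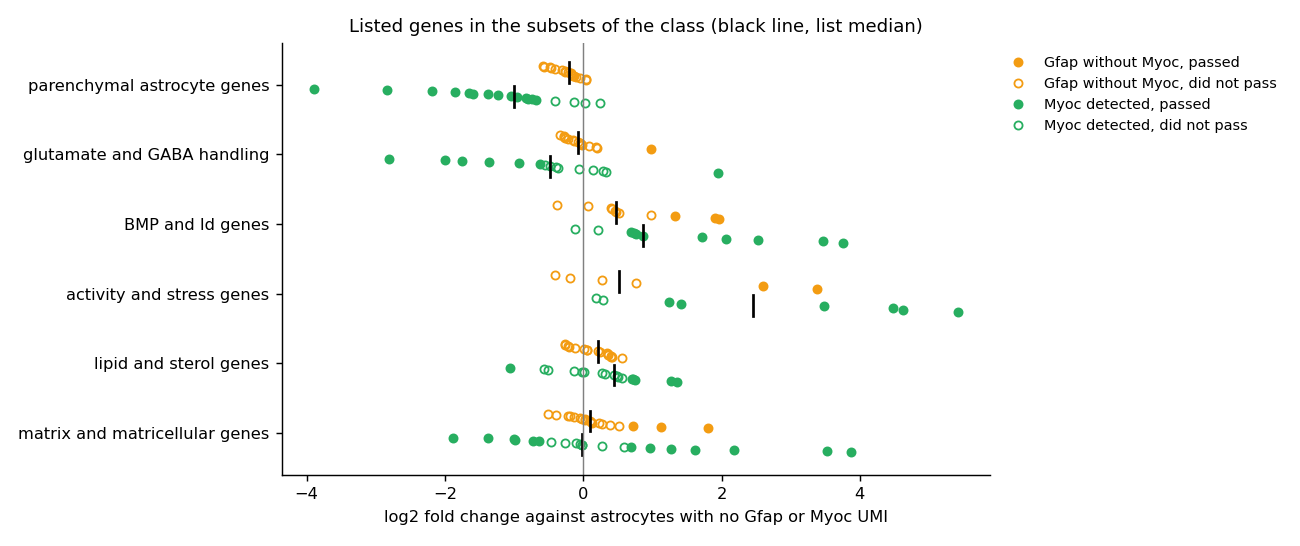
Log2 difference from zero-UMI astrocytes without meningeal-marker nuclei for the genes of 6 lists, in nuclei with Gfap and no Myoc (orange) and in nuclei with Myoc (green); each point is a gene, filled where it passed the test, and a black line marks the list median. Parenchymal genes lie near 0 in the Gfap-only nuclei (median -0.20) and below it in the Myoc nuclei (median -0.9999).

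The same genes were graded along the number of Gfap and Myoc UMIs in a nucleus, which is given as a description because that number chose the classes. From 1 UMI through exactly 2 and 3 to 5 to at least 6, mean Slc38a1 was 50.1, 153, 464 and 922 CPM, and mean Fos 22.4, 76.0, 217 and 455 CPM. In the other direction, Slc7a10 was at 172, 143, 48.5 and 10.2 CPM over these steps, and Gpc5 at 10028, 8979, 6566 and 3211 CPM. Slc4a4, a bicarbonate transporter, stayed between 2196 and 2365 CPM. For Slc38a1, Fos, Slc7a10 and Gpc5, the means at exactly 2 UMIs thus lay between those at 1 UMI and those above. Myoc was detected in 15.4, 29.6, 69.4 and 93.5% of nuclei over these steps. The part of that changing mix in the means was not tested, and such means do not show how single nuclei were spread.

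**Figure D4:**
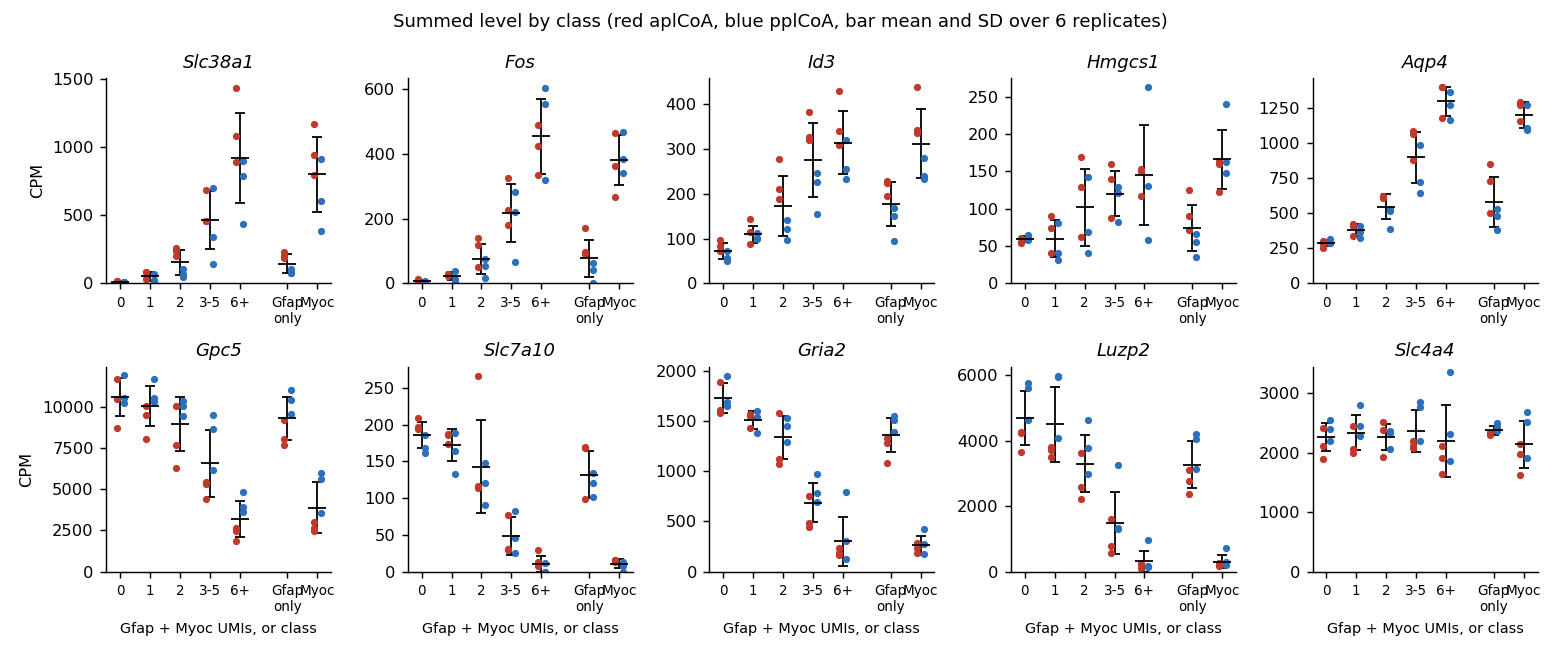
Summed level (CPM) of 10 genes in astrocytes with 0 (without meningeal-marker nuclei), 1, 2, 3 to 5 and at least 6 Gfap and Myoc UMIs and, to the right, in the Gfap-only and the Myoc nuclei of the class; each point is a replicate (red aplCoA, blue pplCoA) and bars give the mean and SD over 6 replicates. Slc38a1, Fos and Aqp4 climb with the UMI number, Slc7a10, Gria2 and Luzp2 drop, and Slc4a4 stays level.

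Within the Gfap or Myoc class, the domains differed in 20 of 5527 genes (0.362%), 2 higher (0.0362%) and 18 lower (0.326%) in aplCoA, by edgeR over 3 against 3 replicates, with 709 genes at an unadjusted p below 0.05. These calls depended on single replicates. By edgeR 0 genes were called without aplCoA replicate 2, without aplCoA replicate 3, without pplCoA replicate 2 or without pplCoA replicate 3, with 500 to 609 at an unadjusted p below 0.05, and 28 and 96 genes were called without aplCoA replicate 1 and pplCoA replicate 1, respectively. With all replicates DESeq2 called 42.

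Ano1 was at 97.1, 84.2 and 107 CPM in aplCoA and 37.9, 32.6 and 4.25 CPM in pplCoA, without overlap (log2 1.69, SE 0.31, edgeR adjusted p = 0.00784). Fxyd1, phospholemman, a regulator of the sodium pump, was at 87.3, 77.2 and 128 CPM against 39.2, 22.8 and 25.5 CPM, also without overlap (log2 1.60, SE 0.28, adjusted p = 0.00609). These were the only genes called higher in aplCoA, and neither was called by edgeR with the replicate as a block (7 calls, 0 higher). Of the 42 genes called by DESeq2, 1 was higher. Of the 18 genes that were lower in aplCoA, Grm3, a metabotropic glutamate receptor of astrocytes, was at 798, 730 and 616 CPM against 1151, 1600 and 1855 CPM (-1.15), and Shisa9, an auxiliary protein of AMPA receptors, at 98.2, 115 and 118 CPM against 199, 300 and 225 CPM (-1.15). Gpc5 was at 4401, 4606 and 3923 CPM against 6494, 8562 and 8507 CPM (-0.91) and Lsamp, a cell adhesion protein, at 8571, 9097 and 8546 CPM against 12660, 14772 and 15503 CPM (-0.76). In all 4 the groups did not overlap, as in 18.9% of all genes tested.

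The others lower in aplCoA included Grin2c, an NMDA receptor subunit (-1.03), Slco1c1, a thyroxine transporter (-1.03), Eps8 (-1.02), Mdga2 (-0.90) and Tspan7 (-0.85), beside noncoding genes such as Gm28750 (-1.50) and 4930505G20Rik (-1.43). As a description of genes the rule used, the log2 difference was 0.34 for Gfap, 0.43 for Aqp4 and 0.98 for Myoc. Id1 had a difference of 0.95 at an edgeR adjusted p of 0.0183 and Agt of 1.34 at 0.0214, both short of the threshold of 0.01. Of the listed genes only Grm3, Gpc5 and Lsamp were called, and the median difference was -0.51 over the parenchymal genes and 0.39 over the BMP and Id genes.

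The domains were also compared within each subset, whose shares of the class in each replicate are given above. These comparisons reuse the nuclei of the class and are set side by side without a test between them. Within Myoc nuclei 1 of 5347 genes was called (0.0187%), Gm20713, with 408 at an unadjusted p below 0.05 in edgeR. Within Gfap-only nuclei 0 of 6162 were called, with 465 at an unadjusted p below 0.05 in edgeR, and DESeq2 was not run there. The log2 difference of Ano1 was 1.28 in Myoc nuclei and 1.86 in Gfap-only nuclei, that of Fxyd1 1.42 and 1.34, that of Shisa9 -0.98 and -0.88, and that of Grm3 -0.81 and -0.62. That of Gpc5 was -0.88 and -0.37, and that of Myoc within Myoc nuclei was 0.38, given as a description.

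**Figure D5:**
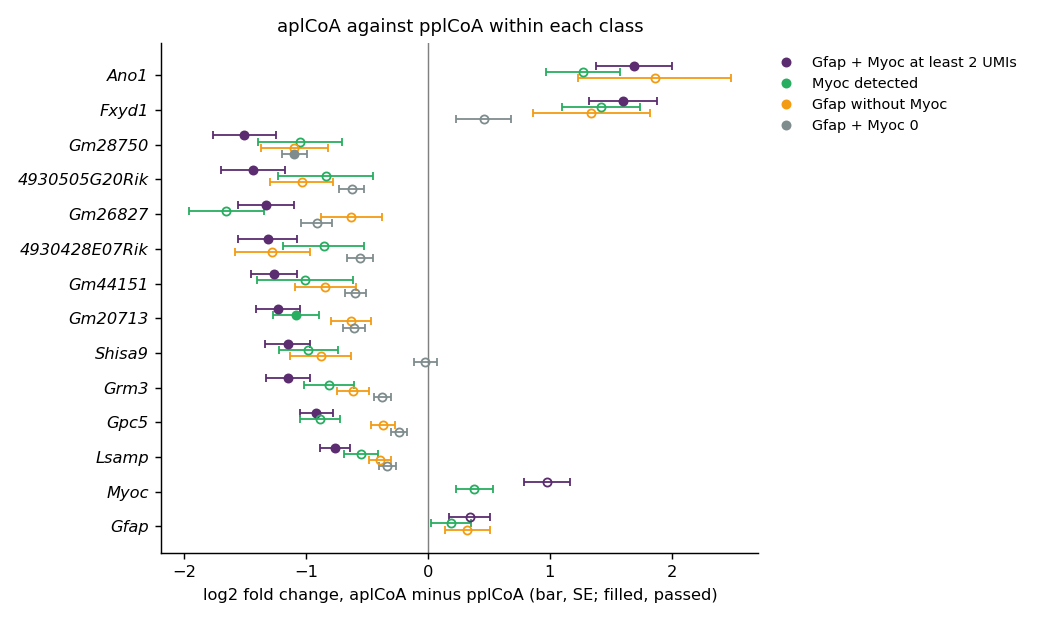
Log2 difference between aplCoA and pplCoA (positive, higher in aplCoA; bars, SE) for 14 genes within all Gfap or Myoc astrocytes (purple), within the Myoc nuclei (green) and the Gfap-only nuclei (orange) of the class, and within zero-UMI astrocytes (grey), filled where the gene passed. Ano1 and Fxyd1 lie to the right of 0 in each set of nuclei of the class, and Shisa9 lies to the left of 0 in the class (-1.15) and near 0 in zero-UMI astrocytes.

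Zero-UMI astrocytes, with 5626 nuclei, differed between the domains in 9 of 5561 genes (0.162%), 2 higher (0.036%) and 7 lower (0.126%). The higher genes were Agt (log2 1.35, beside 1.34 in the Gfap or Myoc class) and the mitochondrially encoded mt-Atp6 (1.27, edgeR adjusted p = 0.00797). Agt reached the detection filter only through aplCoA, here and over all astrocytes, and had to be the higher there. Meningeal-marker nuclei made up 9.96, 20.4 and 14.5% of zero-UMI astrocytes in aplCoA and 6.58, 10.3 and 7.03% in pplCoA. Without them edgeR called 10 of 5346 genes between the domains, 4 higher and 6 lower. In the Gfap or Myoc class mt-Atp6 was at 53.5, 53.8 and 55.1 CPM in aplCoA and 22.8, 19.6 and 21.2 CPM in pplCoA, without overlap, a difference of 1.29 that did not pass (adjusted p = 0.022). In the class mt-Atp6 reached the detection filter only through aplCoA. The median difference between the domains over the mitochondrial genes was 0.73 in the class (5 tested) and 1.08 in zero-UMI astrocytes (6 tested), and the part of RNA quality in the domain differences was not tested. Over all astrocytes 4 of 5509 genes were called (0.0726%), 2 higher and 2 lower (0.0363% each), and the higher genes were again mt-Atp6 (1.30) and Agt, which was at 46.1 ± 4.56 CPM in aplCoA and 18.5 ± 0.994 CPM in pplCoA (log2 1.30, edgeR adjusted p = 0.00747). Neither stayed called by edgeR after doublet removal (1 call, 0 higher). Nor was any gene called without aplCoA replicate 3, pplCoA replicate 2 or pplCoA replicate 3, with 659 to 828 at an unadjusted p below 0.05. The difference between the domains was itself not the same in Gfap or Myoc astrocytes as in zero-UMI astrocytes for 13 of 5618 genes (0.231%) by an interaction term in edgeR at an adjusted p below 0.05, 6 higher (0.107%) and 7 lower (0.125%), among them Shisa6 (1.12) and Shisa9 (-1.11). DESeq2 called 9. By edgeR 0 were called without aplCoA replicate 3, with 290 at an unadjusted p below 0.05, and 1 each without aplCoA replicate 2, pplCoA replicate 2 or pplCoA replicate 3.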

How the data were processed

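The authors deposited unfiltered count matrices, with whole UMI counts per gene and barcode for 7 single-nucleus libraries (10x 3' chemistry), made with Cell Ranger 5.0.0 on mm10 with intronic reads per the submitters' processing notes, and 78 duplicated symbols kept their own entries. Libraries held 50812605 to 129624583 UMIs over 17443221 barcodes, of which 52201 had at least 1000 genes. Pairs of libraries shared 5 to 36 nuclear barcodes, none of them in the Gfap or Myoc class. Counts were summed per replicate and class, which gave 235566 to 1015765 UMIs per replicate for the class, and tested with edgeR 4.0.16 (quasi-likelihood, TMM) in R 4.3.3. Nuclei of 1 replicate are not replicates. Genes were tested when detected in at least 10% of nuclei in either group, and called at a Benjamini-Hochberg adjusted p below 0.01 and a fold above 1.5 (0.05 and no fold for the difference between classes in the domain effect). Comparisons of classes within replicates had the replicate as a block, and comparisons of domains did not. Shares were tested with exact permutation tests and, as log odds over all classes, with limma 3.58.1. Doublets were scored with Scrublet (scanpy 1.11.5) and removed only as an alternative. Other tools were Python 3.11.15, scipy 1.17.1 and DESeq2 1.42.0.

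The members, gene lists and tests were chosen with earlier results of these data known. Genes named by size were the 14 called genes with the largest difference in each direction and at least 20 CPM in 1 class (8 for the subsets and domains), beside listed genes, and a few genes that meet these rules are not reported here. On simulated counts with 200 genes changed by a log2 fold of 1, the test recovered 94.5% between the classes (5618 genes), 57.5% between Myoc and Gfap-only nuclei (5851 genes), 40% between the domains in the class (5527 genes) and 64.5% for the difference in domain effect (5618 genes), with 2, 0, 1 and 10 false calls, respectively. Alternatives were other tests, filters, thresholds and gates, thinning, doublet removal, replicate blocks and leaving out each replicate.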

Additional observations from a re-analysis of the deposited data

Results flagged for a closer look

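For 13 of 5618 genes (0.231%) the difference between aplCoA and pplCoA was not the same in Gfap or Myoc astrocytes as in zero-UMI astrocytes, by an interaction term in edgeR at an adjusted p below 0.05, and 433 genes had an unadjusted p below 0.05. Of the 13, 6 were higher and 7 lower, while without meningeal-marker nuclei 46 of 5485 genes were called, 10 higher and 36 lower. The differences of differences below are on the log2 scale, positive where the class had the larger aplCoA value relative to pplCoA. Both classes come from the same replicates.

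Shisa6, an auxiliary protein of AMPA receptors, was at 204, 152 and 163 CPM in aplCoA and 133, 176 and 153 CPM in pplCoA within the class, and at 84.2, 74.7 and 74.6 CPM and 120, 176 and 160 CPM among zero-UMI astrocytes, a difference of 1.12 (edgeR adjusted p = 0.00583). The domains overlapped in the class and did not in zero-UMI astrocytes, where 20.7% of all genes tested did not overlap. Its relative Shisa9 went the other way (-1.11, adjusted p = 0.00705), at 98.2, 115 and 118 CPM against 199, 300 and 225 CPM in the class and at 179, 189 and 222 CPM against 204, 197 and 183 CPM in zero-UMI astrocytes. The AMPA receptor subunit Gria2 (-0.68) and the kainate receptor subunit Grik2 (0.64) were also on it.

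Other genes with a negative difference were Cables1 (-1.09), Pigk (-0.72), the glypican Gpc5 (-0.66) and the adhesion protein Mdga2 (-0.63). The others with a positive difference were A330093E20Rik (1.17), Gm12296 (1.11), the phosphoinositide 3-kinase subunit Pik3r1 (0.71) and the metalloprotease Adamts9 (0.66).

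Myoc nuclei were a larger share of the class in aplCoA, and Gria2 (log2 -2.49), Pigk (-3.09) and Gpc5 (-1.44) were lower in Myoc than in Gfap-only nuclei by edgeR. Within the Myoc nuclei and within the Gfap-only nuclei, the domain difference was -0.19 and -0.33 for Gria2, 0.13 and -1.15 for Pigk, 0.06 and 0.75 for Adamts9, -0.74 and -0.75 for Cables1, and -0.88 and -0.37 for Gpc5, beside -0.91 for Gpc5 in the whole class. The part of the makeup of the class in these differences was not tested. Without aplCoA replicate 3 none of the 13 was called by edgeR, and 290 genes had an unadjusted p below 0.05.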

How the results depend on the processing

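Without 1 replicate at a time, the class differed from zero-UMI astrocytes in 713 to 919 genes (833 with all), Myoc from Gfap-only nuclei in 449 to 661 (611), Gfap-only from zero-UMI nuclei in 81 to 142 (116) and Myoc from zero-UMI nuclei in 1206 to 1336 (1321). Domain calls were less stable, at 0 to 96 in the class (20), 0 to 17 in zero-UMI astrocytes (9), 0 to 18 in all astrocytes (4), 0 to 21 in Myoc nuclei (1), 0 to 7 in Gfap-only nuclei (0) and 0 to 57 for the difference between classes (13). The log odds of the class among nuclei (0.504) ranged over 0.324 to 0.716, and the difference in its share of astrocytes (3.81 percentage points) over 2.16 to 5.53.

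Between the class and zero-UMI astrocytes, 1678 genes were called with no filter on low genes, 1473 with filterByExpr, 1714 at an adjusted p below 0.05 with no minimum fold, and 1260 with a threshold of 4 UMIs, and 1003 between Myoc and Gfap-only nuclei at the laxer threshold. The domain comparison gave, for the class, zero-UMI astrocytes and all astrocytes, 71, 99 and 104 calls with edgeR's likelihood ratio test, 42, 68 and 95 with DESeq2, 99, 288 and 333 with no filter, and 91, 113 and 129 at the laxer threshold. A stricter gate gave 52 in the class, and in all astrocytes filterByExpr gave 15 and doublet removal 1. The difference between classes had 27 calls with the likelihood ratio test, 51 with no filter, 24 with filterByExpr and 46 without meningeal-marker nuclei (chosen after seeing the data). The likelihood ratio test takes each gene's spread as known, and whether this or anything else gave the larger counts was not tested.

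Replicate numbers are shared by the domains. Deviations of same-numbered replicates in the class correlated at 0.0498, 0.0774 and 0.0579 over 9464 genes, each below 0.1, although each replicate correlated best with its own number. They correlated at 0.445, 0.286 and 0.0715 in zero-UMI astrocytes and at 0.384, 0.318 and 0.0656 in all astrocytes, where the third pair was below 0.1. Replicates with different numbers correlated at -0.355 to 0.107 in zero-UMI astrocytes. The labels do not say what a shared number stands for, and a shared batch was not tested. The main comparisons of domains had no block, and counts with the block are given beside them. With the replicate block the domains differed in 7 genes in the class (0 higher in aplCoA), 112 in zero-UMI astrocytes and 135 in all astrocytes. Without it the class differed from zero-UMI astrocytes in 801 genes and Myoc from Gfap-only nuclei in 598, and the difference between classes had 0 calls. Of the named genes, no value reversed. Where the gene could be tested, 430 of 441 values kept their call for the class against zero-UMI astrocytes (35 of 476 could not be tested, 12 of them without meningeal-marker nuclei), 238 of 238 for Myoc against Gfap-only nuclei, with 2 untested, 98 of 150 for the domains in the class and 106 of 182 for the difference between classes. The class held 56 to 313 nuclei per replicate, and the part of that number in the domain calls was not tested.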
